A study of Xenopus laevis with 3 samples.

Results

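Genes of motile cilia and of intraflagellar transport were examined in RNA from heads of Xenopus laevis tadpoles. The members were all probe sets whose platform gene symbol begins with dnah, dnai, dnal, ift, tekt, rsph, cfap or spag followed by a number (or by i and a number), or is foxj1 or mcidas. This gave 65 of the 15495 probe sets that carry 1 gene symbol, from 32635 on the array. They stood for 47 gene symbols, or 40 genes when numbered copies and the homeologs are pooled. Many X. laevis genes exist as 2 homeologs from an old genome duplication, and the symbol ends in .L or .S by whether the long or the short chromosome of a pair holds the copy.

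The arrays came from a study of cartilage formation that depleted the protein kinase MLTK or the transcription factor Sox6 with morpholinos, antisense oligonucleotides that block translation or splicing of a target mRNA. The 3 groups were heads of embryos given CoMO, xMLTK-MO or xSox6-MO, so every group, the control included, carried a morpholino at 10 ng per cell. It was placed in the animal pole of every blastomere early in cleavage, embryos were kept at 22 °C, and heads were taken 72 hours after fertilisation, near stage 41. Each group had 1 array, so nothing could be set against a spread between replicates, no test was run, and every value describes these 3 arrays. The labels do not say what CoMO stands for, and neither the number of heads in a sample nor the clutch they came from is stated in the sources used here. No annotated probe set carried the symbols map3k20 (MLTK) or sox6 (0 of each), so depletion was not checked here.

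Motile cilia beat because dynein motors slide the microtubules of the axoneme, the core of the cilium, against each other. Radial spokes and a central apparatus steer the motors, and tektins and other inner proteins stiffen the microtubules. Intraflagellar transport (IFT) carries parts along every cilium, motile or not, with complex B needed for the outward and complex A for the return journey, so IFT genes are also used by sensory cilia and photoreceptors. In the tadpole head, multiciliated cells are known from the skin, the nose and the lining of the brain. The transcription factor Foxj1 switches on genes of motile cilia, and the coregulator Mcidas starts the multiciliated cell programme.

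Levels are given as linear intensities per probe set, and a difference is the log2 intensity on the first-named array minus that on the second. A probe set was counted as measured where it was above an intensity of 26.2 (log2 4.71), the highest of 23 negative control probe sets on any array, and lower values were raised to that floor. All 3 arrays had similar overall levels, with median intensities between 89.8 and 92.7 and between 70.4% and 71.3% of all probe sets above the floor. Of the 65 members, 53 were above the floor on all 3 arrays, 1 on a single array and 11 on none. Those 53 probe sets covered 44 of the 47 symbols. The heads are a mixture of cells, so fewer cells of a type and less RNA per cell cannot be told apart.

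**Figure D1:**
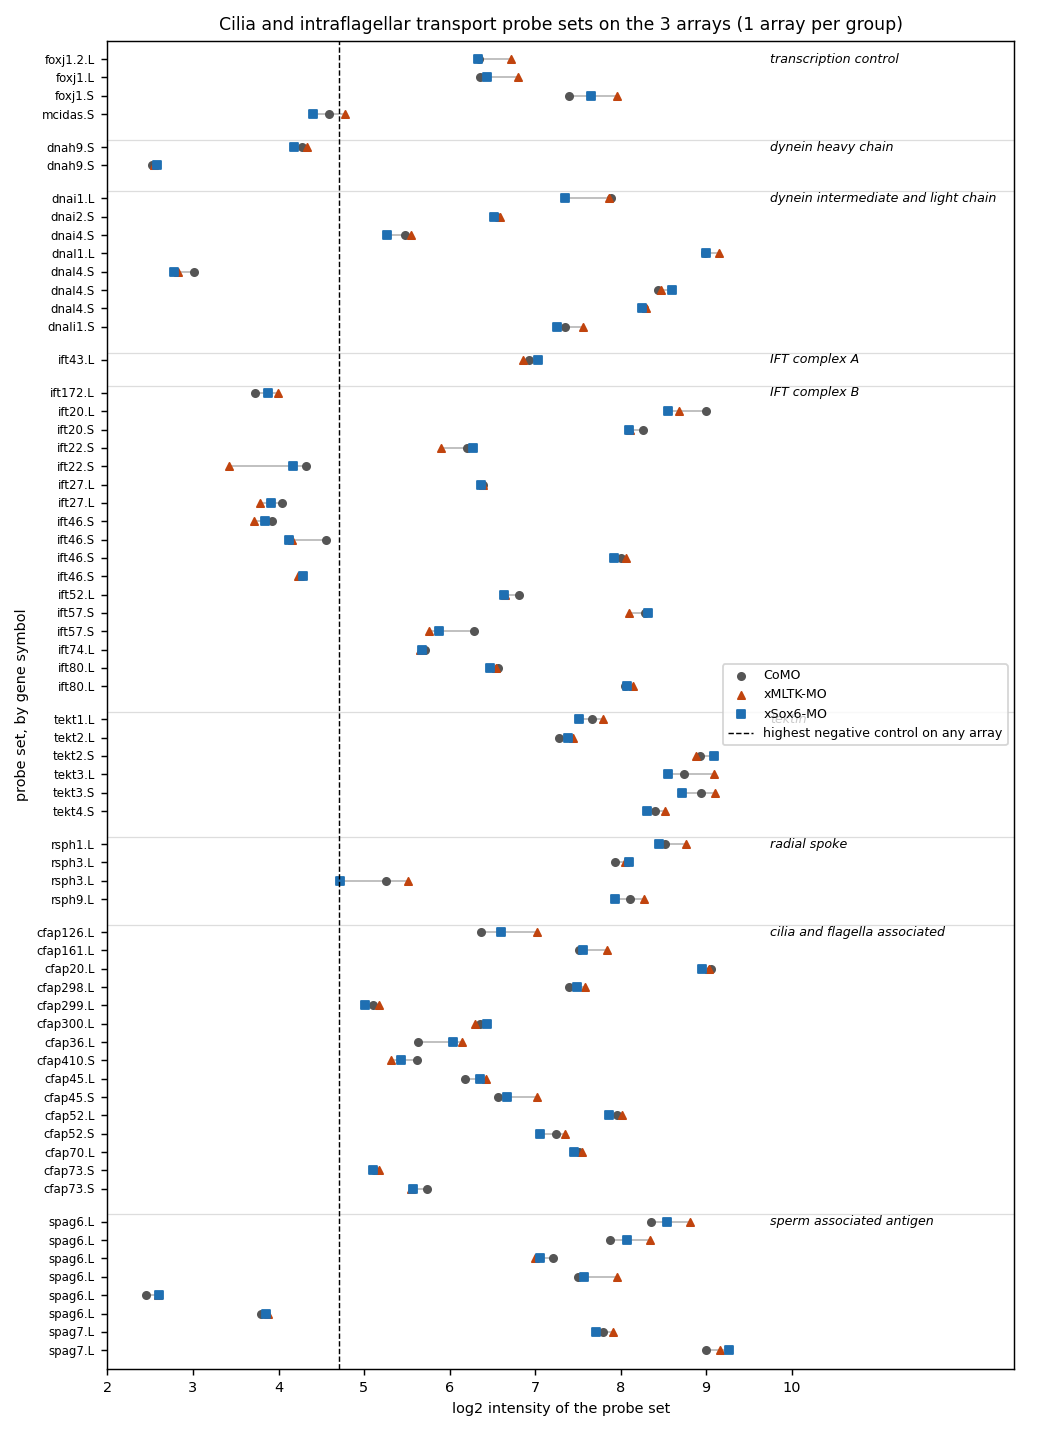
Log2 intensity (horizontal axis) of each of the 65 member probe sets (rows, by gene symbol and role) on the CoMO, xMLTK-MO and xSox6-MO arrays, 1 array per group, with the floor of 4.71 as a dashed line. The 3 symbols of most rows lie close together, and the widest spread above the floor is 0.79, at a probe set of rsph3.L.

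Every measured member was within 2-fold of its CoMO level in both morphants. Few of all probe sets passed 2-fold either, so a count of 0 does not set a group of this size apart. In xMLTK-MO against CoMO, 0 of 54 measured members were at least 2-fold lower and 0 at least 2-fold higher, where 0.889% and 1.48% of all 12600 measured probe sets were. At 1.5-fold, 0 were lower and 1 was higher, beside 4.50% and 4.60% of all probe sets. The member differences ran from -0.53 to 0.64 with a median of 0.08, while the median of all probe sets was -0.02. By sign alone, 37 members were higher and 17 lower, whereas 47.2% of all probe sets were higher and 52.8% lower. Centring on hybridisation controls, which adds 0.10 to every difference of this pair of arrays, gave 45 members higher and 9 lower with a median of 0.18, and 62.3% of all probe sets higher.

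In xSox6-MO against CoMO, 0 of 53 measured members were at least 2-fold lower and 0 at least 2-fold higher, beside 1.09% and 1.04% of all 12551 measured probe sets. At 1.5-fold the counts were again 0 and 0, beside 5.31% and 4.65% of all probe sets. Differences ran from -0.54 to 0.40, with a median of -0.03 that lay beside a median of -0.01 over all probe sets. There were 22 members higher and 31 lower, against 48.5% and 51.5% of all probe sets. Centred on hybridisation controls, which adds 0.18 to every difference of this pair of arrays, 45 members were higher and 8 lower, and 71.5% of all probe sets were higher.

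Between the morphants, xMLTK-MO against xSox6-MO, 0 of 54 measured members were at least 2-fold lower and 0 at least 2-fold higher, beside 0.311% and 0.559% of 12524 probe sets. Only 1 member passed 1.5-fold, in the higher direction, beside 2.75% of all probe sets, and 0 in the lower, beside 2.08%. The median was 0.11 against 0.00 over all probe sets (-0.00045 before rounding). By sign, 41 members were higher and 13 lower, where all probe sets split 50.0% and 50.0%, but centring on hybridisation controls made the member split 29 and 25, with 36.2% of all probe sets higher. The 3 comparisons share their arrays and are not independent of each other.

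**Figure D2:**
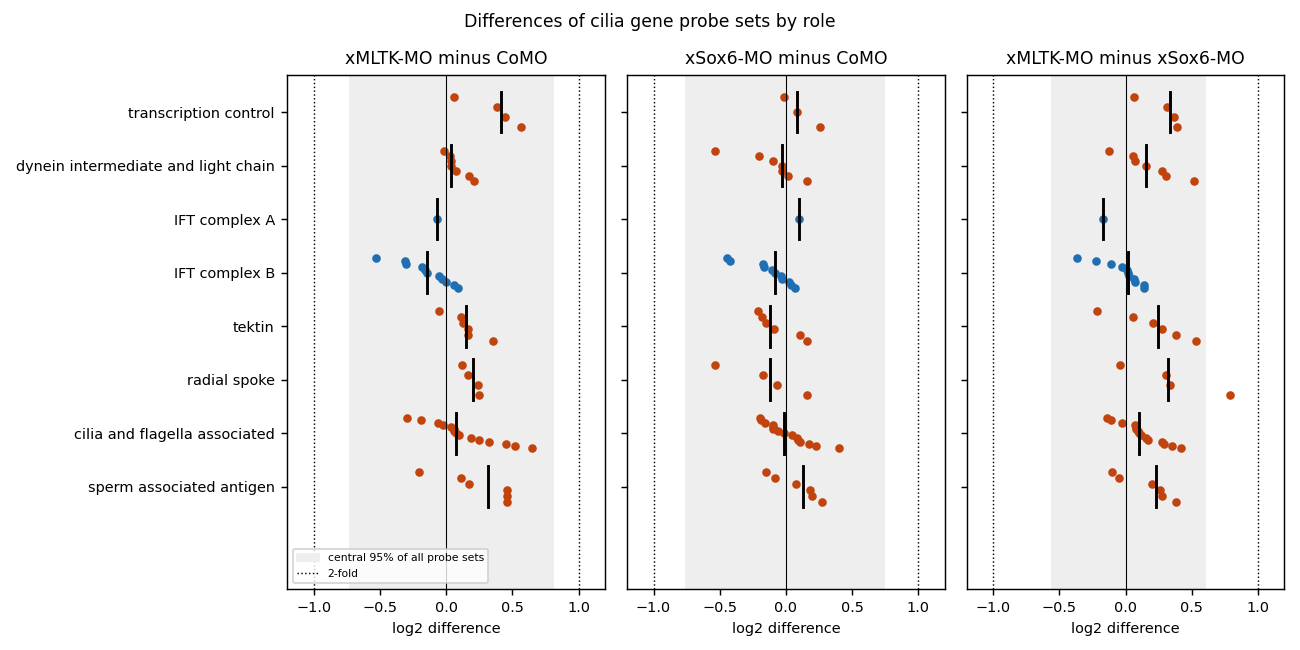
Log2 difference (horizontal axis) of each measured member probe set in the 3 comparisons, grouped by role, with black bars for the median of a role, blue points for IFT and red for other members. The grey band holds the central 95% of all measured probe sets and the dotted lines mark 2-fold; 1 member, a probe set of rsph3.L at 0.79 between the morphants, lies outside the band.

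Of the 53 members above the floor on every array, 33 were highest on the xMLTK-MO array, 12 on the CoMO array and 8 on the xSox6-MO array. As shares these are 62.3%, 22.6% and 15.1%, while all 12128 probe sets above the floor on every array divided as 28.8%, 38.4% and 32.8%. Counted by the lowest array, 26 members (49.1%) were lowest in xSox6-MO, 17 (32.1%) in CoMO and 10 (18.9%) in xMLTK-MO. All 12128 probe sets divided as 33.2%, 34.5% and 32.3% in the same order of arrays. The distance from the lowest to the highest array had a median of 0.22 over these members and of 0.31 over all such probe sets. The order depended on the scaling. Under hybridisation control centring 28 members were highest in xMLTK-MO, 22 in xSox6-MO and 3 in CoMO, as against 26.5%, 53.0% and 20.4% of all probe sets. With that centring 39 members (73.6%) were lowest in CoMO, 8 (15.1%) in xMLTK-MO and 6 (11.3%) in xSox6-MO. The shares of all probe sets were 54.3%, 28.6% and 17.1%.

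The regulators come first in the programme. foxj1.S, which encodes a copy of Foxj1, had an intensity of 168 in CoMO, 249 in xMLTK-MO and 201 in xSox6-MO. Its homeolog foxj1.L had 82.0, 112 and 86.9, and the further copy foxj1.2.L had 80.9, 105 and 80.3. On each of these 3 probe sets the xMLTK-MO array was the highest, by 0.57, 0.45 and 0.38 over CoMO, and by 0.31, 0.36 and 0.39 over xSox6-MO. In xSox6-MO the differences from CoMO were 0.26, 0.08 and -0.01, the last of which turns positive when arrays are centred on hybridisation controls. These copies are close relatives whose probes may share targets. mcidas.S had intensities of 24.0, 27.3 and 21.1, above the floor only in xMLTK-MO and barely so, so that no order of its levels can be read. It is still included in the counts by sign of xMLTK-MO against CoMO and against xSox6-MO. Under the floor rule it could only come out as higher there.

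Among the dynein genes, the heavy chain was not measured. Both probe sets of dnah9.S, an outer arm heavy chain gene, were under the floor on every array, with intensities of 18.1 to 20.2 on the first and 5.76 to 5.98 on the second. The intermediate and light chain genes gave 7 measured probe sets of 8. The outer arm intermediate chain gene dnai1.L had 236 in CoMO, 234 in xMLTK-MO and 163 in xSox6-MO. The xSox6-MO array alone was low, at -0.53 from CoMO, which is 1.45-fold, and the xMLTK-MO array was at -0.02 from CoMO. A second outer arm intermediate chain gene, dnai2.S, did not share this, with 94.1, 96.6 and 92.1. dnai4.S, for an intermediate chain of an inner arm dynein, had 44.5, 46.9 and 38.7.

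Light chain genes make up the rest of this group. dnal1.L, an outer arm light chain gene, had 506, 569 and 511, which puts xMLTK-MO at 0.17 and xSox6-MO at 0.01 from CoMO. dnali1.S, for a light intermediate chain of inner arms, had 164, 189 and 153. The 2 measured probe sets of dnal4.S, another light chain gene, had 309.9, 315 and 304, and 348, 356 and 388, and another stayed under the floor at 6.83 to 8.09. In all, 6 of 7 dynein chain probe sets were higher in xMLTK-MO than in CoMO and 5 of 7 were lower in xSox6-MO, with medians of 0.04 and -0.03. The latter median was 0.15, with 2 of 7 lower, when arrays were centred on hybridisation controls. Among those lower in xSox6-MO as deposited, dnai2.S and a probe set of dnal4.S were at only -0.03. Of all measured probe sets, 47.2% were higher in xMLTK-MO and 51.5% lower in xSox6-MO as deposited. These shares also stand beside the counts by sign of the groups and lists below. In groups of few probe sets such a count is coarse.

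IFT genes were measured mostly through complex B. Complex A was represented by ift43.L alone, with 122 in CoMO, 116 in xMLTK-MO and 131 in xSox6-MO. Complex B gave 11 measured probe sets of 17, of which 9 lay below CoMO in xMLTK-MO and 8 in xSox6-MO, with medians of -0.15 and -0.08, and centring on hybridisation controls made these 6 and 2 of 11, with medians of -0.05 and 0.10. The highest deposited value was in CoMO for 7 of these 11, against 2 each for the morphants. CoMO was highest for 38.4% of all probe sets above the floor on every array. Under hybridisation control centring CoMO was highest for fewer of the 11, and for 20.4% of all such probe sets. ift20.L, whose product moves cargo from the Golgi as well as within cilia, had 511, 412 and 375, so both morphants were below CoMO, by -0.31 and -0.45. Its homeolog ift20.S had 307, 277 and 274, lower in the same arrays at -0.15 and -0.16. Under hybridisation control centring ift20.S was marginally higher in xSox6-MO than in CoMO.

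Other complex B genes had probe sets that differed from each other. For ift57.S, a peripheral complex B subunit gene, the first probe set had 78.3, 54.2 and 58.5, low in both morphants at -0.53 and -0.42. The second had 312, 275 and 321, low in xMLTK-MO only, at -0.18. ift22.S, a gene of a small GTPase-like subunit, had 73.8, 59.9 and 77.4, which is -0.30 in xMLTK-MO and 0.07 in xSox6-MO, and its other probe set was under the floor at 20.0, 10.7 and 18.0. ift52.L, of the complex B core, had 112, 100.3 and 99.3. Here CoMO was the highest array, with the morphants at -0.16 and -0.17, but xSox6-MO lay marginally above it under hybridisation control centring.

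Some IFT probe sets hardly varied. ift27.L, for a small GTPase of complex B, had 83.8, 83.7 and 82.2, and ift74.L, a core subunit gene, had 52.5, 50.5 and 51.3. With a probe set of dnal4.S these varied least over the arrays of all 53. ift80.L had 95.1, 93.2 and 88.5 on its first probe set and 265, 282 and 269.6 on its second, and ift46.S had 256, 267 and 243 on the measured 1 of its 4. The remaining 3 of ift46.S, the second of ift27.L and the only probe set of ift172.L, at 13.3, 15.9 and 14.7, were under the floor on every array.

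Tektin genes, for filament proteins inside the microtubules of the axoneme, gave 6 measured probe sets of 6. In xMLTK-MO 5 were higher than in CoMO, with a median of 0.15, and in xSox6-MO 4 were lower, with a median of -0.12 that was 0.06, with 1 lower, under hybridisation control centring. tekt3.L had 426 in CoMO, 543 in xMLTK-MO and 376 in xSox6-MO, and tekt3.S had 489, 549 and 422. Both copies were highest in xMLTK-MO and lowest in xSox6-MO, and the morphants differed by 0.53 and 0.38. With hybridisation control centring xSox6-MO and CoMO were level for tekt3.L, and xSox6-MO stayed marginally below CoMO for tekt3.S. tekt1.L had 203, 222 and 183 and tekt4.S had 338, 366 and 317, the same order of arrays as deposited. In both genes CoMO was the lowest array under hybridisation control centring. The tekt2 copies departed from the deposited order, since tekt2.S had 489, 469.9 and 545, and tekt2.L had 156, 174 and 167. tekt2.S was lowest in xMLTK-MO as deposited and in CoMO under that centring.

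Radial spoke genes gave 4 measured probe sets of 4, 4 of them higher in xMLTK-MO than in CoMO, with a median of 0.20, and 3 of 4 lower in xSox6-MO, with a median of -0.12. Hybridisation control centring left 1 of 4 lower in xSox6-MO, with a median of 0.06. rsph1.L, for a protein of the spoke head, had 367, 433 and 350.2, and rsph9.L, of the spoke head too, had 276, 309 and 245. In both genes xMLTK-MO was the highest array, at 0.24 and 0.16 over CoMO. The stalk gene rsph3.L had 2 probe sets that did not run together. The first had 244, 266 and 273, highest in xSox6-MO. The second had 38.4, 45.6 and 26.4, and its last value, just above the floor, makes xSox6-MO the lowest array at -0.54 from CoMO and 1.73-fold below xMLTK-MO. This was the member past 1.5-fold between the morphants.

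The cilia and flagella associated proteins (cfap) gave 15 measured probe sets of 15, of which 11 were above and 4 below CoMO in xMLTK-MO, with 7 above and 8 below it in xSox6-MO, with medians of 0.07 and -0.01, the second of which turned to 0.17 under hybridisation control centring and 0.04 after renewed quantile normalisation. cfap126.L, which encodes Flattop, a protein that helps place the basal bodies of cilia, had 82.8 in CoMO, 129 in xMLTK-MO and 96.9 in xSox6-MO. It was the member past 1.5-fold in xMLTK-MO, at 1.56-fold and a log2 difference of 0.64, and stood at 0.23 in xSox6-MO. cfap36.L, for a protein that binds the ciliary GTPase Arl3, had 49.5, 71.0 and 65.6. Both morphant arrays were above CoMO here, by 0.52 and 0.40. cfap410.S, for a protein of the base of the cilium, went the other way with 49.0, 39.9 and 43.1.

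Several cfap genes encode proteins bound inside the axoneme's microtubules. cfap45.S had 94.7, 129.8 and 102, cfap45.L had 72.6, 86.3 and 81.7, and cfap161.L had 183, 229 and 189. cfap52.L had 249, 259.7 and 233 and cfap52.S had 152, 163 and 133, with xSox6-MO at -0.10 and -0.19 from CoMO. On each of these 5 probe sets xMLTK-MO was the highest array, except that cfap45.L had xSox6-MO marginally above it under hybridisation control centring. cfap20.L, of the junction between the microtubules, had 532, 524 and 496. CoMO was its highest array as deposited and its lowest under hybridisation control centring.

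Further cfap genes include several that are tied to dynein arms. cfap298.L and cfap300.L, which serve the assembly of dynein arms, had 168, 192 and 179, and 81.9, 78.6 and 86.8. cfap70.L, for a protein of the outer arm, had 183, 188 and 175. The 2 probe sets of cfap73.S, known from an inner arm regulatory complex in Chlamydomonas, had 34.6, 36.0 and 34.3, and 53.1, 46.6 and 47.6. cfap299.L, for which no tie to dynein arms is given here, had 34.5, 36.3 and 32.3.

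The spag probe sets belong to 2 genes. spag6.L encodes a protein of the central apparatus, while spag7.L is not known as a cilium gene and came in through its name. The 4 measured probe sets of spag6.L split, since 3 of them had 327, 449 and 371, then 235, 323 and 269.5, then 181, 248 and 191, which is 0.46 above CoMO in xMLTK-MO on each. The fourth had 148, 128 and 133, lower in both morphants at -0.21 and -0.15, the second of which turned positive under hybridisation control centring. Suffixes of 3 of the 4 mark probes that can bind more than 1 transcript, and the 4 IDs form 2 pairs that differ only in that suffix. The probe sets of a pair may share probes and so may not be separate measurements, which was not checked. The fourth probe set and its pair partner had opposite signs in xMLTK-MO, at -0.21 and 0.46. Over both genes 5 of 6 measured probe sets were higher in xMLTK-MO and 4 of 6 in xSox6-MO, with medians of 0.32 and 0.13. A further 2 were under the floor, with 5.46 to 6.09 and 13.9 to 14.6. spag7.L had 222, 240.0 and 209 on its first and 509, 575 and 617 on its second probe set.

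The role groups were then joined into IFT and the rest, a division made after the values were seen. In xMLTK-MO against CoMO, 10 of 12 measured IFT probe sets were lower, with a median of -0.11, and 35 of 42 others were higher, with a median of 0.15. Of all measured probe sets, 52.8% were lower and 47.2% higher. The others include mcidas.S, which could only count as higher here, spag6.L probe sets that may share probes, and spag7.L, not known as a cilium gene. Centring on hybridisation controls left the IFT split at 6 higher and 6 lower and the others at 39 higher and 3 lower. Under that centring 62.3% of all probe sets were higher. Relative to the median of all probe sets, which such a shift does not alter, IFT stood at -0.09 and the others at 0.16. In xSox6-MO the medians were -0.06 for IFT and -0.03 for the others, or -0.05 and -0.02 relative to all probe sets. No test of the difference between the divisions was run.

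**Figure D3:**
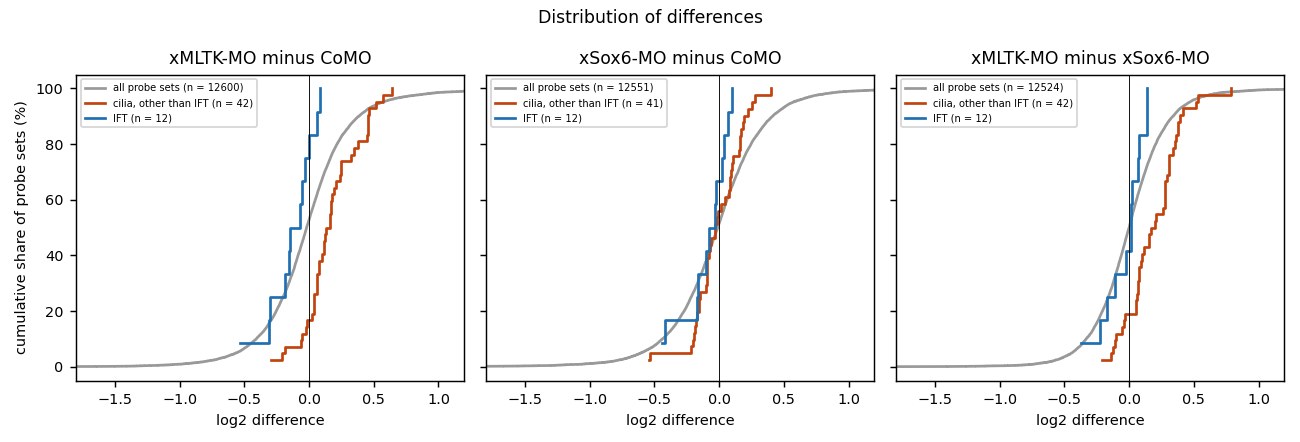
Cumulative share of probe sets (vertical axis, percent) by log2 difference (horizontal axis) in the 3 comparisons, for all measured probe sets (grey), IFT members (blue, n = 12) and other members (red, n = 42, 41 and 42). In xMLTK-MO minus CoMO the middle of the red curve lies to the right of the grey and that of the blue to its left, with medians of 0.15 and -0.11. At the ends the grey curve reaches farther out than both. In xSox6-MO minus CoMO both medians lie near 0, at -0.03 and -0.06, and turn positive under hybridisation control centring.

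Probe sets of the same gene gave a view of how far such small differences repeat within an array. For 7 symbols with at least 2 probe sets above the floor on every array, the lowest and the highest probe set lay a median of 0.13 apart in xMLTK-MO minus CoMO and 0.35 apart in xSox6-MO minus CoMO. They had opposite signs for 3 of the 7 symbols in the former and for 6 of 7 in the latter. The largest gaps were 0.67 at spag6.L in the former and 0.70 at rsph3.L in the latter. The median absolute difference of the 53 members above the floor on every array was 0.16 in the former and 0.10 in the latter. That is the size of single differences, a measure unlike the gap between probe sets. Centring on hybridisation controls changed the opposite signs to 2 of 7 symbols in each.

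Homeologs could be set beside each other for 6 genes. In xMLTK-MO minus CoMO the .L and .S copies had 0.45 and 0.57 for foxj1, 0.35 and 0.17 for tekt3, 0.25 and 0.45 for cfap45, 0.06 and 0.10 for cfap52 and -0.31 and -0.15 for ift20. For these 5 genes both copies were on the same side of 0. tekt2 was the exception, with 0.16 and -0.06. In xSox6-MO minus CoMO no gene of the 6 had copies on opposite sides, and the widest gap was at ift20, with -0.45 and -0.16. Under hybridisation control centring 3 of the 6 pairs lay on opposite sides in xSox6-MO and 0 in xMLTK-MO. Copies may share probes through similar sequence, and how far was not tested.

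Other cilia genes, taken from a list of 117 symbols outside the naming rule, showed no common direction. Of these, 46 symbols had probe sets, 59 in all, with 50 measured. In xMLTK-MO minus CoMO 22 were higher and 28 lower with a median of -0.01, and in xSox6-MO minus CoMO 26 were higher and 24 lower with a median of 0.02. The higher ones include gas8.S, which was under the floor in CoMO at 23.4 and could only count as higher in both comparisons. The counts at least 2-fold higher or lower were 0 and 0 in both comparisons. Of all measured probe sets, 1.48% were at least 2-fold higher and 0.889% lower in xMLTK-MO, and 1.04% and 1.09% in xSox6-MO. At such shares a count of 0 among 50 does not set these genes apart. The sign of these medians turned with the scaling or the floor, as given in the closing part.

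Within that list, ccno.L, a cyclin gene needed to make the many centrioles of multiciliated cells, had 83.8 in CoMO, 116 in xMLTK-MO and 94.2 in xSox6-MO. Its homeolog ccno.S had 33.6, 39.3 and 34.0. On both, xMLTK-MO was the highest array, at 0.47 and 0.23 over CoMO. In the same group foxn4.S, for a transcription factor of the multiciliated cell programme, had 98.8, 67.7 and 75.8, the group's lowest differences at -0.55 and -0.38. Dynein assembly factor genes had 5 of 6 probe sets higher in xMLTK-MO, with a median of 0.20, and 5 of 6 higher in xSox6-MO, with a median of 0.07, among them dnaaf5.S with 41.0, 55.6 and 42.5.

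The other groups of the list follow. Transport genes not named ift had 8 of 10 lower in xMLTK-MO with a median of -0.04, and 4 of 10 lower in xSox6-MO with a median of 0.03. The BBSome and transition zone genes, which act at the cilium's base and gate, had 7 of 10 lower in each, with medians of -0.04 and -0.14. Hybridisation control centring turned the median of the transport genes in xMLTK-MO to 0.06 and those of the BBSome group to 0.06 and 0.04. The centriole kinase gene plk4.L, which dividing cells use too, was lower in both on each probe set, by -0.31 and -0.52 in xMLTK-MO. The tubulin genes tubb4b.L and tubb4b.S had 3898, 3589 and 3209, and 2807, 2352 and 2109.6. Both were lowest in xSox6-MO, with differences from CoMO of -0.28 and -0.41. tppp3.L, a tubulin-binding protein gene, was the list's member past 1.5-fold in xSox6-MO, with 59.6, 43.9 and 37.3. Central pair and other axoneme genes had medians of 0.06 and -0.06 over 9 probe sets, regulators and centriole genes -0.03 and 0.02 over 9, docking and ruler genes 0.05 and 0.02 over 3, and the tubulin genes -0.12 and -0.28 over 3. That centring turned the axoneme median to 0.12 in xSox6-MO and that of the regulators to 0.07 in xMLTK-MO.

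Among the marker lists of other head cells, those of proliferating cells and photoreceptors had the lowest medians of the lists with more than 1 measured gene. Of 15 measured probe sets for proliferating cells, 15 were lower in xMLTK-MO and 15 in xSox6-MO, with medians of -0.79 and -0.56 and a summed intensity of 8813, 4999 and 6132 in CoMO, xMLTK-MO and xSox6-MO. Photoreceptor markers, from cells whose outer segment is a modified cilium, were lower on 14 of 16 probe sets in xMLTK-MO and 15 of 16 in xSox6-MO, with medians of -0.43 and -0.59 and sums of 9363, 7836 and 5536. Centring on hybridisation controls left 15 and 14 of the 15 proliferation probe sets and 13 and 14 of the 16 photoreceptor probe sets lower. In the photoreceptor list, rcvrn.2.L and rcvrn.2.S went the other way in xMLTK-MO, at 0.55 and 0.61. The probe set that was higher in xSox6-MO was that of rcvrn.2.S, at 0.10. cnga1.L of that list was under the floor on every array. The part of these cells in the IFT values was not tested.

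Skin cells that neighbour the multiciliated cells were mixed. Ionocyte markers had 7 of 16 probe sets higher in xMLTK-MO and 4 of 16 in xSox6-MO, with medians of -0.06 and -0.12 and sums of 10992, 10790.3 and 10130.3. The 16 include a probe set of ubp1.L that was above the floor only in CoMO, at 27.0, and could only count as lower. Epidermal keratin and desmosome markers had 4 of 9 higher in each, with medians of -0.10 and -0.06 and sums of 19229, 19316 and 23727. The goblet cell list was represented by itln1.L alone, at 15713, 18900.4 and 19672, or 0.27 and 0.32 above CoMO. Small secretory cell markers had 3 of 3 lower in each, by medians of -0.09 and -0.40, all from foxa1, while tph1.L and slc18a2.L were under the floor. With hybridisation control centring the medians turned positive for ionocytes (0.04 and 0.06), for the epidermis (0.00053 and 0.12) and for small secretory cells in xMLTK-MO (0.01).

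The multiciliated cell list itself, which shares foxj1, mcidas, tekt2, dnah9 and dnai1 with the members and adds ccno, had 7 of 9 measured probe sets higher in xMLTK-MO and 6 of 8 in xSox6-MO, with medians of 0.23 and 0.09. Its sum was 1378, 1553 and 1417. The 9 include mcidas.S, which was above the floor only in xMLTK-MO, could only count as higher there, and was not counted in xSox6-MO. Olfactory neuron markers had 2 measured probe sets, of which gnal.L had 507, 499 and 502 and omp.S was above the floor only in xMLTK-MO at 38.1, and the inner ear list had tecta.2.S alone, above the floor only in CoMO at 42.7. The part of a changed share of any of these cells in the values of the cilia genes was not tested.

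**Figure D4:**
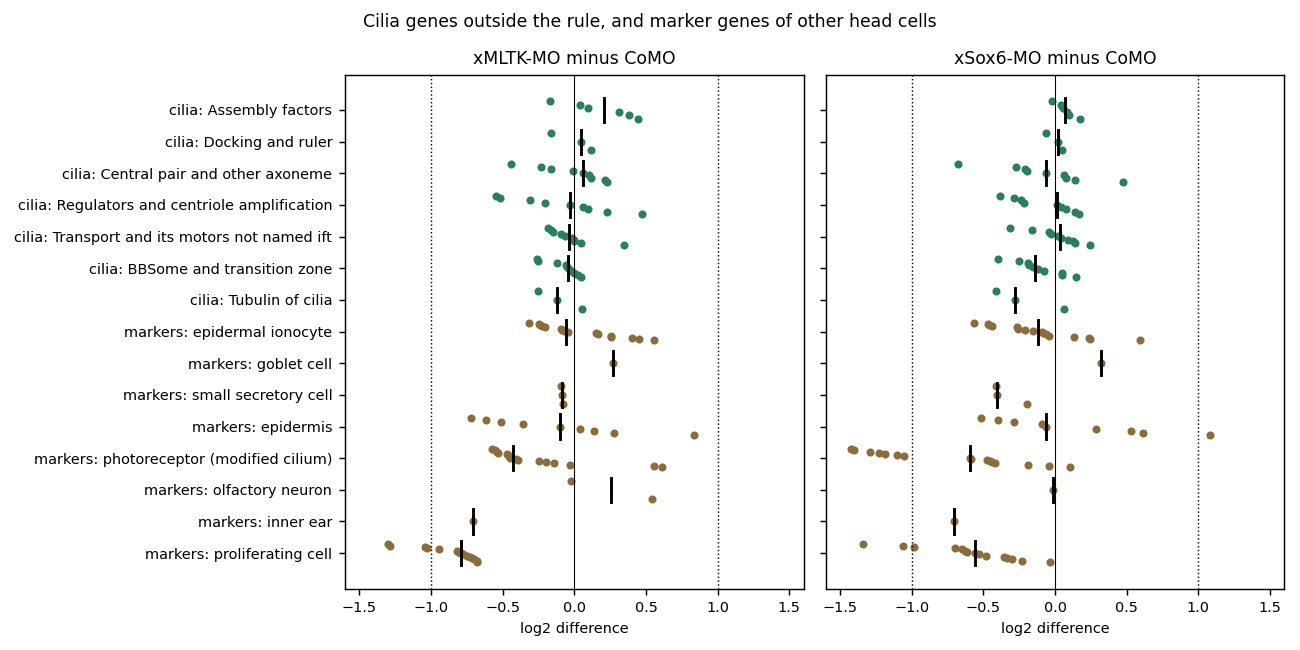
Log2 difference (horizontal axis) from CoMO of each measured probe set in lists of cilia genes outside the naming rule (green) and of marker genes of other head cells (brown), with black bars for list medians and dotted lines at 2-fold. Proliferation markers lie at a median of -0.79 in xMLTK-MO and photoreceptor markers at -0.59 in xSox6-MO, while each cilia list has its median between -0.28 and 0.20, several of which change sign under hybridisation control centring.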

How the data were processed

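RNA from tadpole heads was measured on Affymetrix GeneChip Xenopus laevis Genome 2.0 arrays, 1 per group, and groups follow the treatment given for each sample. The authors deposited linear intensities. RMA, named in the submitters' processing notes, corrects background, quantile-normalises arrays and summarises probes. The series' design text names GeneChip operating Software 1.4 and GeneSpring GX 11.0.2, and no genome build is named. Quantile normalisation hides a change of all transcripts together. The number of arrays limits the precision.

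Gene symbols came from the platform annotation. The 65 member IDs all matched RefSeq (Xenopus_laevis_v10.1) by gene ID, with 0 symbols changed. Log2 was taken with no pseudocount, and values under 26.2, the highest negative control, were raised to it. A difference counted only where at least 1 array of the pair was above that floor. No model or p-value was used. Calculations used Python 3.11.15, numpy 2.4.6 and pandas 2.3.3. The counting at 2-fold was tested on simulated data with planted changes larger than any of the members. Counts by sign and medians near 0 were not tested in that way.

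Named members were the foxj1 and mcidas probe sets, the extremes of each role group, those past 2-fold, the 3 least variable and the homeologs farthest apart. The other members are given for completeness. The members and the lists of cilia genes and cell markers were chosen with earlier results of these data known. Alternatives covered the floor, a level filter, a pseudocount of 16, centring, normalisation, averaging per symbol, probe sets of ambiguous suffix, spag7 and the fold threshold. The IFT grouping, the counts by sign and the scalings of role groups and lists were added after seeing the data. Promoter and protein sequences were not used here.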

Additional observations from a re-analysis of the deposited data

How the results depend on the processing

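No paired analysis was possible because each group had 1 array, and leaving out an array leaves no comparison. The count of members at least 2-fold lower was 0 and at least 2-fold higher was 0 in all 3 comparisons under the 10 alternatives that kept this threshold; at 1.5-fold, 1 member was higher in xMLTK-MO minus CoMO and 1 in xMLTK-MO minus xSox6-MO, because the threshold was smaller. Centring on hybridisation controls shifted all differences alike, by 0.10 in xMLTK-MO and 0.18 in xSox6-MO against CoMO and by -0.08 between the morphants. In xMLTK-MO minus CoMO it moved the median to 0.18 for the members, 0.25 for members other than IFT, 0.55 for the foxj1 probe sets, -0.011 for IFT and 0.090 for the other cilia genes, the last with a change of sign. In xSox6-MO minus CoMO it turned the medians of the members, IFT and the other members to 0.15, 0.12 and 0.15, and moved foxj1 to 0.26 and the other cilia genes to 0.20. Between the morphants it turned the IFT median to -0.066 and that of the other cilia genes to -0.055. Each shift was the difference between the median control values of the 2 arrays. The median of the differences of single controls was -0.101, -0.155 and 0.027 in the 3 comparisons, and centring on it was not run. In the last 2 comparisons it is smaller in size than the shift used. A shift of that smaller size would leave ift20.S and ift52.L, at -0.163 and -0.174 from CoMO, lower in xSox6-MO. Counts by sign under centring depend on its size too. Medians near 0 changed sign elsewhere, and the cause was not tested: the other cilia genes had 0.00442 after renewed quantile normalisation in xMLTK-MO, and -0.039 with no floor and -0.029 with the pseudocount in xSox6-MO, while IFT between the morphants had -0.0045 with no floor, -0.0021 with the pseudocount and -0.0045 without ambiguous probe sets. Under the 9 other alternatives the median of all members lay between 0.05 and 0.11 in xMLTK-MO and between -0.05 and -0.01 in xSox6-MO against CoMO, and between 0.07 and 0.15 between the morphants. Of 594 recomputed values of named members, 68 moved by more than 0.1, 59 of them under hybridisation control centring. These 59 were fixed by the size of the shift, which was 0.10008 in xMLTK-MO and 0.1811 in xSox6-MO against CoMO. Between the morphants it was -0.08102, too small for any value to be counted. The 59 therefore do not measure how stable the members are. Poly-A controls differed by -0.27 in xMLTK-MO and -0.35 in xSox6-MO from CoMO, and centring on them was not run. Members under the floor on every array, 11 probe sets, allow no statement of their own. The genes dnah9.S and ift172.L had no other probe set that was measured.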
